A study of Mus musculus with 18 samples.

Results

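The glycolysis and hypoxia genes described here are 33 named mouse genes: 15 enzymes of the path from glucose to pyruvate, 2 lactate dehydrogenases, 4 glucose and lactate transporters, 3 regulators of glycolytic flux, and 9 genes of the hypoxia-inducible factor (HIF) response outside glycolysis. They were taken by symbol from a list, out of 55335 genes in the bulk count table. All 33 passed the filter on low counts that left 17013 genes to test. The study removed cells that express Prom1, a surface glycoprotein of epithelial progenitor cells, from mouse liver tumours of 2 kinds and measured bulk poly-A RNA in 12 tumour libraries, 3 in each of 4 groups. DEN+CCl4 tumours arose after N-nitrosodiethylamine (1 mg/kg, given at 14 days of age) and carbon tetrachloride (0.2 ml/kg, from 8 weeks of age). N-Ras+AKT tumours arose after hydrodynamic tail vein injection of plasmids for NRasV12 and myristoylated AKT (20 μg each) with a Sleeping Beauty transposase plasmid (1.6 μg), a route that brings DNA mainly into hepatocytes. Depletion used tamoxifen (doses of 4 mg), which activates CreERT2 made from the Prom1 locus and so switches on diphtheria toxin A from Rosa26. DEN+CCl4 tumours were taken 16 days and N-Ras+AKT tumours 6 days after the last dose, so the model and the time after tamoxifen cannot be told apart. The strain label gives Prom1C-L/+;Rosa26DTA/+ for every bulk library, whereas the design text names Prom1+/+;Rosa26DTA/+ littermates as controls and also mentions an olive oil vehicle. Which of these the control libraries received is therefore not settled here, and all 4 groups carry the Rosa26DTA allele. The Cre allele acts in every Prom1-expressing cell of the animal, not in tumour cells alone. The labels do not say that each library came from a separate animal, so the p-values below measure the spread between these libraries, which may be partly technical.

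Glycolysis splits glucose into pyruvate in the cytosol, and lactate dehydrogenase turns pyruvate into lactate when oxygen or mitochondrial capacity is short. HIF-1, a pair of proteins made of an oxygen-regulated alpha subunit and ARNT, binds a short DNA core in the promoters of many glycolytic genes and of genes for acid handling, collagen hydroxylation and oxygen sensing, and raises their transcription in hypoxia. The healthy liver relies on isozymes of its own for several steps, among them the pyruvate kinase Pklr and the transporter Slc2a2, and liver tumours often add the widely expressed forms Hk2, Aldoa, Pkm and Slc2a1.

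Total counts ran from 31306617 to 48055812 per library. Levels are given as counts relative to library size (CPM) on library sizes scaled by the trimmed mean of M values (TMM), whose factors ran from 0.773 to 1.323. Prom1 was measured at 60.1, 76.7 and 48.9 CPM in the DEN+CCl4 controls (libraries 7, 8 and 13) and at 17.4, 40.0 and 35.7 after depletion (6, 9 and 10), a difference that did not pass (edgeR adjusted p = 0.381). In N-Ras+AKT tumours Prom1 was at 45.4, 59.2 and 78.3 CPM in controls (3, 10 and 15) and fell to 5.81, 16.5 and 2.17 after depletion (6, 11 and 17; log2 fold change -2.90 ± 0.61 SE, adjusted p = 0.00953). Hepatocyte markers were abundant in all groups: the 9 markers summed to between 156842 and 241206 CPM in the DEN+CCl4 libraries and between 67016 and 84217 in the N-Ras+AKT libraries. The 7 bile duct markers summed to between 48.1 and 493 CPM in DEN+CCl4 and to between 7144 and 10337 in N-Ras+AKT controls, most of it Spp1. Skeletal muscle markers, a tissue rich in Pfkm, Eno3 and Ldha, stayed below 1 CPM in sum in all libraries (0.110 to 0.908), with Myh4 at 0 throughout. N-Ras+AKT control 3 stood apart for the genes described here: it was the highest of its group for 27 of 33 members, against 35.4% of all genes tested, and N-Ras+AKT control 10 was the lowest for 21 of 33, against 29.8%. Control 3 also had the highest summed erythroid markers of its group (671 CPM, against 267 and 201 in controls 10 and 15) and the lowest summed proliferation markers (53.3, against 153 and 254). The part of either in the members' values was not tested, and results that rest on control 3 are given below with and without it.

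RefSeq promoter windows (build GRCm38.p6, 250 bases before to 50 after each start) were found for 31 members, and none is shown for Slc2a3 and Ndrg1. The hypoxia-response core, searched as ACGTG or GCGTG on either strand, was present in at least 1 window of 28 of these 31 genes (90.3%), against 46.7% of 27025 genes. By window the shares were 36 of 44 (81.8%) and 43.8% of 32851. The members' windows also had a higher median GC content, 62.8% against 52.7%, and the search made no allowance for it. A core inside CACGTG is also the E-box bound by MYC and other factors. CACGTG occurred in 13.6% of the members' windows and 7.2% of all windows. A match describes letters only and is no measured binding site. The 210 bases before the start are shown for 5 members with different patterns in these tumours, 3 that fell with depletion in N-Ras+AKT tumours (Slc2a1, Car9, Slc16a3) and 2 that were higher in N-Ras+AKT with and without depletion (P4ha2, Slc16a1). Capitals mark the core, written CACGT or CACGC where it lies on the opposite strand.
Slc2a1 (chr4:119108535-119108744, + strand): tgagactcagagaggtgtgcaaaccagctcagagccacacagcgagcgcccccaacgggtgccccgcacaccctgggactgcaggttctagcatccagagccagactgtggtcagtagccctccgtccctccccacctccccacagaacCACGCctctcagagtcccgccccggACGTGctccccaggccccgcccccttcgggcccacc
Car9 (chr4:43506816-43507025, + strand): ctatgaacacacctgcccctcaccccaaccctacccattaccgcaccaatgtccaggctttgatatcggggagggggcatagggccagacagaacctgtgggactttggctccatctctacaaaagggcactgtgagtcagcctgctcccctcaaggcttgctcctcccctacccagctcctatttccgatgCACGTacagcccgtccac
Slc16a3 (chr11:120948857-120949066, + strand): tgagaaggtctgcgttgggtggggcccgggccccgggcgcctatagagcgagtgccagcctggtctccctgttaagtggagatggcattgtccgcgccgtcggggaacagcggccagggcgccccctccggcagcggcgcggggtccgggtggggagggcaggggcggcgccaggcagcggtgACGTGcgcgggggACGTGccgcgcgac
P4ha2 (chr11:54100714-54100923, + strand): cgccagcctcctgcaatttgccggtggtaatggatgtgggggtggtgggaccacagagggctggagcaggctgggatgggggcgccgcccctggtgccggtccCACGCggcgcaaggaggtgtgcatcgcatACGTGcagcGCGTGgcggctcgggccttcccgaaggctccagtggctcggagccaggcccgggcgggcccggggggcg
Slc16a1 (chr3:104638454-104638663, + strand): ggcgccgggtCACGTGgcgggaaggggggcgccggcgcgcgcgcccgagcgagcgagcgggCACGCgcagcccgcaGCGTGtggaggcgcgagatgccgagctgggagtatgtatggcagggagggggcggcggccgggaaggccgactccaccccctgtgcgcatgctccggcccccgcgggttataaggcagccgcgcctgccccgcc
The core began 61 and 36 bases before the start in Slc2a1, 18 in Car9, 27 and 14 in Slc16a3, and 107, 78 and 69 in P4ha2. In Slc16a1 a core on each strand overlapped within CACGTG, 200 bases before the start, and others lay 149 and 134 bases before it. All 5 excerpts held the core, as did at least 1 window of 28 of the 31 members with windows. Excerpts chosen from such a list cannot show whether the core goes with a gene's behaviour.

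Without depletion, N-Ras+AKT tumours had more RNA from most glycolysis and hypoxia genes than DEN+CCl4 tumours. Of 33 members, 21 were higher, 1 was lower (Aldoc) and 11 did not pass at an adjusted p under 0.05 (edgeR quasi-likelihood test, Benjamini-Hochberg over 17013 genes), where 20.8% of all genes tested were higher and 19.8% lower. The median log2 difference of the members was 0.96, beside 0.04 over all genes tested. The libraries of the groups did not overlap for 24 members that were higher (28.4% of all genes) and 1 that was lower (26.1%). The 6 largest differences were those of the lactate exporter Slc16a3 and of 5 HIF targets outside glycolysis, although without N-Ras+AKT control 3 Ndrg1 (1.74) and Ankrd37 (1.50) were below Pfkp (2.02) and Hk2 (2.18). In bulk tissue a change in the share of a cell type and a change of RNA per cell cannot be told apart. In the same comparison all 7 bile duct markers, 5 of 6 erythroid and 5 of 6 neutrophil markers were higher. Lower were 6 of 9 hepatocyte, 6 of 8 endothelial and 3 of 6 B and plasma cell markers. The part of these markers in the members' differences was not tested.

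**Figure D1:**
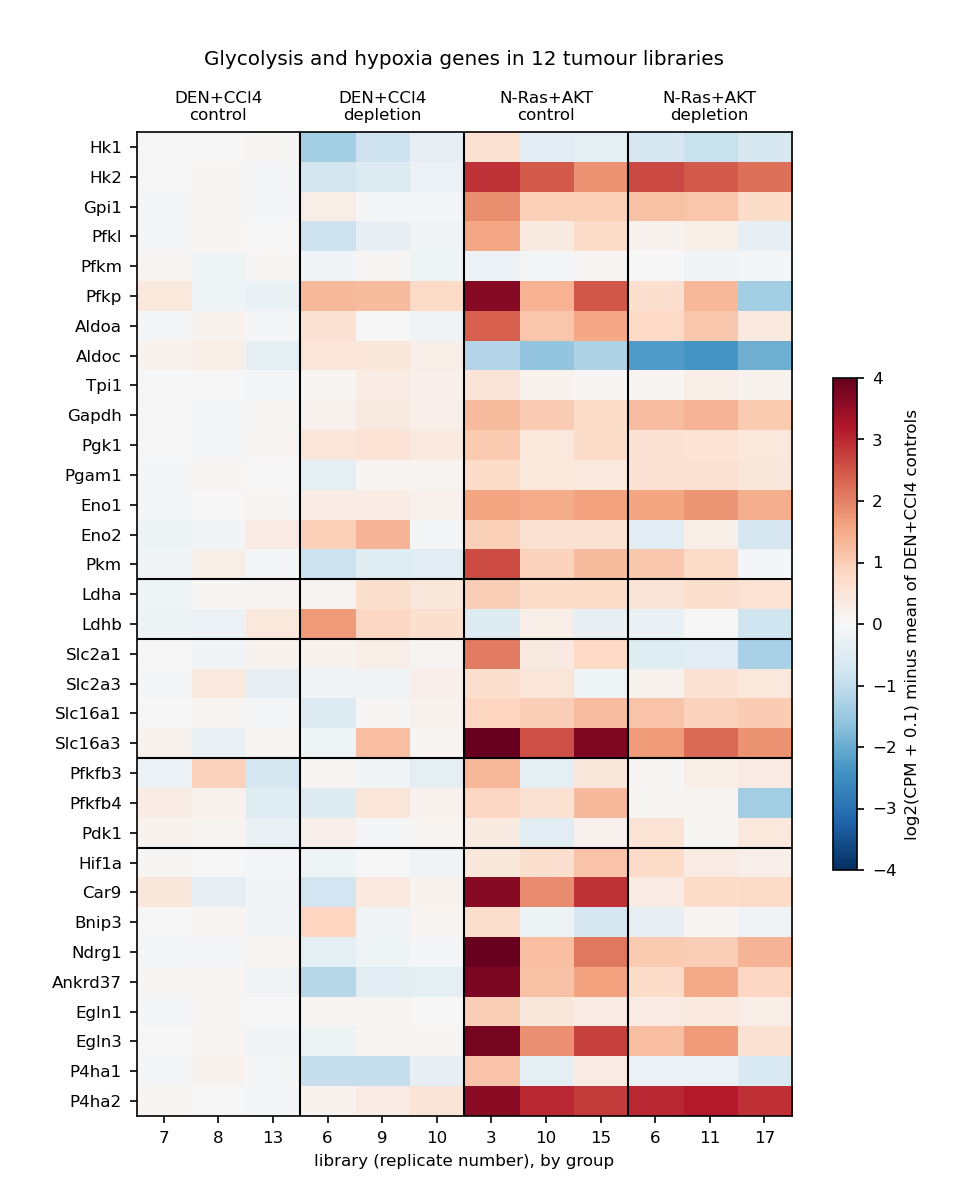
Each row is a member and each column a library, grouped by tumour model and depletion; colour is log2(CPM + 0.1) minus the mean of the 3 DEN+CCl4 controls, with lines between the role groups (enzymes, lactate dehydrogenases, transporters, regulators, HIF genes). N-Ras+AKT control 3 is the darkest red column, and Hk2, Eno1 and P4ha2 are red in all 6 N-Ras+AKT libraries.

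Of the transporters, Slc16a3 (MCT4), which exports lactate, had the largest difference of any member. It was at 0.320, 0.221 and 0.318 CPM in the DEN+CCl4 controls (8 to 11 counts) and at 15.6, 2.17 and 5.03 in the N-Ras+AKT controls 3, 10 and 15. Every N-Ras+AKT control lay above every DEN+CCl4 control, with control 3 far above the others (log2 fold change 4.72 ± 0.73, 26.4-fold, adjusted p = 0.000593; without control 3, 3.65, adjusted p = 0.000668). Slc16a1 (MCT1), which carries lactate either way, rested on even libraries: 49.2, 52.0 and 46.5 CPM against 89.9, 96.4 and 116 (1.03 ± 0.16, adjusted p = 0.000583). The glucose importer Slc2a1 (GLUT1) was at 17.0, 15.8 and 18.7 CPM in DEN+CCl4 and at 72.8, 21.9 and 29.8 in N-Ras+AKT (1.27 ± 0.38, adjusted p = 0.0225). Without control 3 the Slc2a1 difference was 0.59 and did not pass (adjusted p = 0.0636). Slc2a3 (GLUT3), the importer of neurons and leukocytes, was between 0.463 and 1.01 CPM in these 6 libraries and did not pass (0.38, adjusted p = 0.402).

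Among the 15 enzymes 10 were higher, 1 was lower and 4 did not pass. Hk2, the tumour-type hexokinase that traps glucose in the cell, was at 3.92, 4.16 and 3.70 CPM in DEN+CCl4 and at 29.5, 21.7 and 13.9 in N-Ras+AKT controls, a 5.53-fold difference with no overlap (2.47 ± 0.25, adjusted p = 4.41e-05). Hk1, the hexokinase of most other tissues, was within the same range in both (5.63 to 5.96 and 4.31 to 8.86 CPM; 0.03, adjusted p = 0.948). The 3 phosphofructokinases, which make the committed step, went separate ways. Pfkp, the platelet form, was at 13.5, 9.02 and 8.48 CPM against 127, 26.4 and 57.3 (2.77 ± 0.68, adjusted p = 0.00858). The liver form Pfkl differed less (0.96, adjusted p = 0.0176; without control 3, 0.55 and adjusted p = 0.0606), and the muscle form Pfkm ran from 11.4 to 14.7 CPM over the 6 libraries (-0.08, adjusted p = 0.614).

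The aldolases moved apart as well. Aldoa, the muscle and general form that cleaves fructose bisphosphate, was at 66.9, 77.0 and 67.2 CPM in DEN+CCl4 and at 371, 152 and 205 in N-Ras+AKT (1.79 ± 0.32, adjusted p = 0.00129). Aldoc, the brain form, was at 30.6, 32.4 and 21.6 CPM against 12.3, 9.17 and 11.8, the lower member of the list (-1.34 ± 0.17, 2.54-fold lower, adjusted p = 0.000174). In the lower part of the pathway, Eno1, the general enolase, was the most even: 266, 279 and 282 CPM against 822, 766 and 844 (1.56 ± 0.13, adjusted p = 1.58e-05). Pkm, the pyruvate kinase of most tissues outside the liver, was at 27.7, 36.6 and 29.0 CPM against 189.9, 58.9 and 74.3 (1.79 ± 0.42, adjusted p = 0.00669). Gpi1, Gapdh, Pgk1 and Pgam1 were higher by log2 differences between 0.52 and 1.33, although Pgam1 did not pass without control 3 (0.40, adjusted p = 0.0564). The brain enolase Eno2 had 2 to 17 counts in these libraries and did not pass (1.16, adjusted p = 0.171), nor did the triose isomerase Tpi1 (0.25, adjusted p = 0.177).

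Of the lactate dehydrogenases, Ldha was higher in N-Ras+AKT controls (342, 394 and 415 CPM against 758, 642 and 642; 0.83 ± 0.16, adjusted p = 0.00184) and Ldhb, the heart form, was not (1.60, 1.54 and 2.52 CPM against 1.25, 2.23 and 1.43; -0.21, adjusted p = 0.676). None of the 3 regulators passed. Pfkfb4, a kinase that makes the activator of phosphofructokinase, had the largest difference among them (5.06, 4.66 and 2.92 CPM against 7.34, 6.26 and 10.3; 0.92 ± 0.40, adjusted p = 0.0846). Pfkfb3, its hypoxia-inducible relative, overlapped between groups (13.4 to 40.6 and 16.8 to 54.5 CPM; 0.48, adjusted p = 0.415). Pdk1, which keeps pyruvate out of the mitochondrion, ran from 31.8 to 41.4 CPM in DEN+CCl4 and from 27.8 to 48.4 in N-Ras+AKT controls (0.06, adjusted p = 0.835).

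Of the 9 HIF genes outside glycolysis, 7 were higher, none lower, and Bnip3 and P4ha1 did not pass. Car9, a surface carbonic anhydrase with a part in acid handling, was near the limit of detection in DEN+CCl4 controls (0.214, 0.0827 and 0.116 CPM, 3 to 6 counts). In N-Ras+AKT controls Car9 was at 2.76, 0.755 and 1.60 CPM (3.64 ± 0.60, adjusted p = 0.000745). P4ha2, a collagen prolyl hydroxylase, was at 0.997, 0.938 and 0.868 CPM against 12.6, 8.25 and 7.11, a 9.98-fold difference (3.32 ± 0.24, adjusted p = 6.12e-06). P4ha1, the other catalytic subunit of that hydroxylase, overlapped between groups (13.5 to 15.9 and 11.0 to 31.7 CPM; 0.49, adjusted p = 0.233).

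Ndrg1, a stress-induced cytosolic protein, was at 6.37, 6.51 and 7.20 CPM in DEN+CCl4 and at 129.8, 15.4 and 29.4 in N-Ras+AKT controls (3.12 ± 0.64, adjusted p = 0.00343). Without control 3 the difference was 1.74 (adjusted p = 0.000469). Egln3 (PHD3), an oxygen sensor that is itself a HIF target, was at 7.05, 7.42 and 6.45 CPM against 99.5, 24.8 and 46.4 (3.03 ± 0.45, adjusted p = 0.000575). Ankrd37, an ankyrin repeat protein, was at 0.854, 0.882 and 0.723 CPM against 12.3, 1.95 and 2.71 (2.79 ± 0.63, adjusted p = 0.00491; without control 3, 1.50, adjusted p = 0.00847). Egln1 (PHD2), the main oxygen sensor, and Hif1a, the HIF subunit itself, were higher by 0.63 and 0.78. Hif1a was lowest in control 3 (74.0 CPM, against 85.8 and 121 in controls 10 and 15), whereas the other 8 genes of this group were highest there. Bnip3, a mitophagy receptor, was at 244, 129 and 93.4 CPM against 139 to 159.7 in DEN+CCl4 (0.06, adjusted p = 0.908).

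Set side by side, the 17 glycolytic enzymes and lactate dehydrogenases had a median log2 difference of 0.96 (11 higher, 1 lower) and the 9 HIF genes outside glycolysis a median of 2.79 (7 higher), a description with no test. Without control 3 these medians were 0.74 and 1.50. Leaving out control 3 left 19 of the 22 calls, without Pfkl, Pgam1 and Slc2a1, and it lowered Pkm to 1.10, Pfkp to 2.02 (adjusted p = 0.0382), Egln3 to 2.35, Car9 to 3.10 and Aldoa to 1.34.

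**Figure D2:**
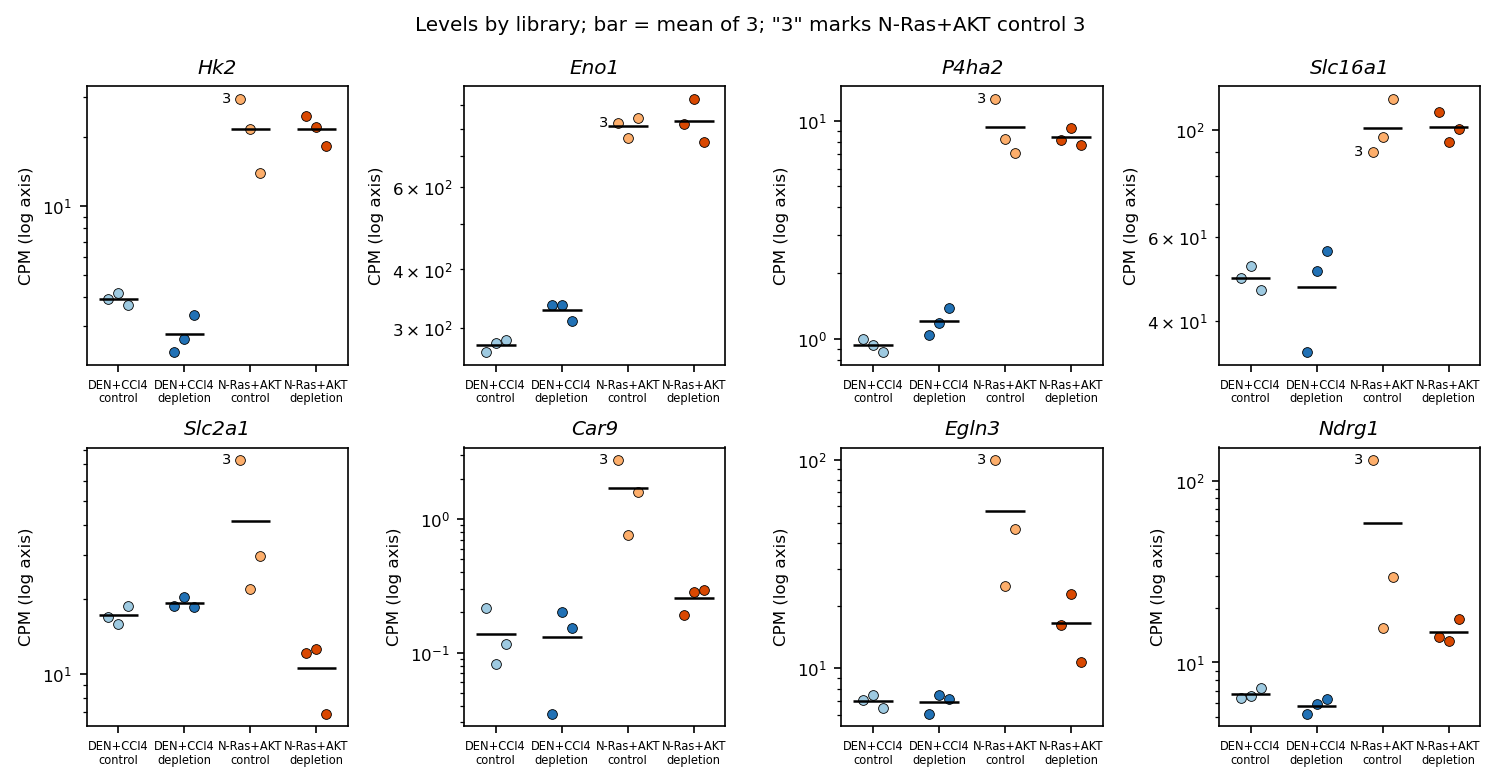
Each panel is a member and each point a library; the vertical axis is CPM on a log scale and the bar is the mean of the 3 libraries of a group. The upper row (Hk2, Eno1, P4ha2, Slc16a1) is high in all N-Ras+AKT libraries, and in the lower row (Slc2a1, Car9, Egln3, Ndrg1) the N-Ras+AKT control group is spread out with control 3 (marked) at the top.

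After depletion the same contrast of the models was made in 6 other libraries. There, 11 members were higher, 3 were lower and 19 did not pass, where 17.9% of all genes tested were higher and 15.8% lower, and the median log2 difference was 0.43 beside 0.03 over all genes. The 11 higher members were among the 21 that were higher in the controls (52.4% of those and all of these): Hk2, Gpi1, Gapdh, Pgam1, Eno1, Pkm, Slc16a1, Hif1a, Ankrd37, Egln3 and P4ha2. Libraries did not overlap for 14 members that were higher (24.3% of all genes) and 3 that were lower (22.3%). Hk2 had the largest difference, at 2.30, 2.64 and 3.33 CPM in DEN+CCl4 tumours after depletion (libraries 6, 9 and 10) and 24.8, 22.1 and 18.4 in N-Ras+AKT tumours after depletion (6, 11 and 17; 2.98 ± 0.25, 7.87-fold, adjusted p = 2.19e-05). P4ha2 followed at 1.04, 1.18 and 1.39 against 8.17, 9.23 and 7.74 CPM (2.79 ± 0.23, adjusted p = 1.47e-05). In the same contrast all 6 erythroid, 6 of 7 T and NK cell and 7 of 10 macrophage markers were higher. Of 6 B and plasma cell markers 4 were higher and 1 lower, and of 9 hepatocyte markers 1 was higher and 5 lower. The part of these markers in the members' differences was not tested.

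Aldoc was lower in this contrast too, at 38.6, 38.4 and 33.7 CPM against 5.74, 5.24 and 7.17 (-2.61 ± 0.18, 6.10-fold lower, adjusted p = 6.76e-06). Ldhb was lower at 6.16, 3.36 and 3.02 CPM against 1.51, 1.85 and 1.02 (-1.52 ± 0.36, adjusted p = 0.00735). Eno2, with 1 to 14 counts a library, was lower at an adjusted p of 0.0490 although its libraries overlapped (-1.88 ± 0.67). Ankrd37 was higher at 0.313, 0.575 and 0.617 CPM against 1.43, 2.51 and 1.53 (1.85 ± 0.65, adjusted p = 0.0469). The other 8 passing members were higher by log2 differences between 0.56 (Hif1a) and 1.35 (Eno1). Of the 21 members that had been higher in the controls, 10 did not pass here, among them Slc16a3 (1.61 ± 0.68, adjusted p = 0.0885), Ndrg1 (1.35 ± 0.61, 0.116), Car9 (0.93 ± 0.65, 0.288) and Slc2a1 (-0.87 ± 0.39, 0.108). The calls of Ankrd37, Egln3, Pkm, Hif1a and Eno2 ended when any of several libraries was left out, and that of Ldhb when DEN+CCl4 depletion 6 and N-Ras+AKT depletion 17 were left out together. Those of Hk2, Gpi1, Gapdh, Pgam1, Eno1, Slc16a1, P4ha2 and Aldoc stood under each alternative tried.

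In DEN+CCl4 tumours no member changed with depletion (0 of 33 by edgeR, where 0.370% of all genes tested changed, 0.112% higher and 0.259% lower). By edgeR 6 of 33 members were under an unadjusted p of 0.05, beside 3186 of all 17013 genes tested. DESeq2 called 2 members higher, Ldhb and Pgk1, beside 366 of 16366 genes. The median log2 difference was 0.07 beside -0.01 over all genes. Libraries did not overlap for 9 members that were all higher (11.5% of all genes) and 7 that were all lower (16.0%). Ldhb had the smallest adjusted p, with 1.60, 1.54 and 2.52 CPM in controls and 6.16, 3.36 and 3.02 after depletion (1.14 ± 0.36, adjusted p = 0.129). Eno2 (1.34 ± 0.67, adjusted p = 0.308), Pfkp (1.11 ± 0.65, 0.392) and Hk1 (-0.80 ± 0.30, 0.193) had the other large differences. Pgk1, which makes ATP in the lower pathway, was at 252, 239.6 and 264 CPM in controls and 349.8, 364 and 332 after depletion (0.47 ± 0.16, adjusted p = 0.147). The 9 HIF genes outside glycolysis had a median of -0.02 (range -0.71 to 0.37, 3 above 0 and 6 below 0). Egln3 was at 7.05, 7.42 and 6.45 CPM and then at 6.06, 7.42 and 7.16. P4ha1 was at 13.9, 15.9 and 13.5 CPM and then at 7.52, 7.44 and 11.5, without overlap. Ankrd37, also without overlap, was at 0.854, 0.882 and 0.723 CPM and then at 0.313, 0.575 and 0.617. Neither passed. DEN+CCl4 depletion 6 stood low for the proliferation markers (5.33 CPM in sum, against 139 and 58.4 in libraries 9 and 10). It was also low for stellate and fibroblast markers (82.3, against 199.7 and 223) and bile duct markers (48.1, against 155 and 113). Library 6 was the lowest of its group for 17 of 33 members, beside 42.2% of all genes tested. Summed endothelial markers were lower after depletion (329 to 347 CPM, then 118 to 239), as were erythroid markers (47.6 to 90.0, then 3.62 to 19.5). Neutrophil markers were higher (5.35 to 7.29, then 10.4 to 12.6). None of these markers passed by edgeR, and their part in the members' values was not tested.

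In N-Ras+AKT tumours depletion came with less RNA from the transporters Slc2a1 and Slc16a3, the HIF targets Car9, Egln3 and Ndrg1, the enzymes Pfkp, Pfkl, Aldoa and Aldoc and the regulator Pfkfb4, while Hk2, Eno1, Gapdh, Slc16a1 and P4ha2 had values close to the controls. Of 33 members none rose by edgeR, DESeq2 or limma voom. By edgeR 10 fell and 23 did not pass, where 12.8% of all genes tested rose and 10.8% fell. By the same edgeR test 15 of 33 members were under an unadjusted p of 0.05, beside 6346 of all 17013 genes tested. The median log2 difference was -0.32 beside -0.02 over all genes. Libraries did not overlap for 12 members that were all lower (21.5% of all genes) and for no member that was higher (21.4%). The N-Ras+AKT controls enter this comparison and that of the models, so the 2 sets of values share libraries. In the same comparison 5 of 7 bile duct markers fell (summed level 7144 to 10337 CPM in controls and 309 to 3485 after depletion) and 9 of 10 macrophage markers rose (167 to 285, then 436 to 586). Of 9 hepatocyte markers 5 rose and 2 had differences below 0 that did not pass. The summed level of hepatocyte markers overlapped (69137 to 74629.8 CPM in controls, 67016 to 84217 after depletion). The part of these markers in the members' values was not tested.

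Car9 fell most, from 2.76, 0.755 and 1.60 CPM (controls 3, 10 and 15) to 0.191, 0.286 and 0.293 (libraries 6, 11 and 17; -2.71 ± 0.54, 6.55-fold lower, adjusted p = 0.00655), close to its level in DEN+CCl4 tumours. Slc16a3 fell from 15.6, 2.17 and 5.03 CPM to 1.15, 1.74 and 1.24 (-2.46 ± 0.62, adjusted p = 0.0173). Slc2a1 fell from 72.8, 21.9 and 29.8 CPM to 12.1, 12.6 and 6.88 (-1.98 ± 0.39, 3.95-fold lower, adjusted p = 0.00739), so that all 3 libraries lay below the 6 DEN+CCl4 libraries (15.8 to 20.4 CPM). The lactate carrier Slc16a1 was at 109, 94.1 and 100.4 CPM after depletion (0.01, adjusted p = 0.981).

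Pfkp fell from 127, 26.4 and 57.3 CPM to 16.0, 25.8 and 3.81 (-2.21 ± 0.66, adjusted p = 0.0354), with control 10 and depletion 11 nearly level. Egln3 fell from 99.5, 24.8 and 46.4 CPM to 16.1, 22.8 and 10.7 (-1.78 ± 0.43, adjusted p = 0.0151). Ndrg1 passed (-1.98 ± 0.60, adjusted p = 0.0387), but its libraries overlapped: 129.8, 15.4 and 29.4 CPM in controls and 13.8, 13.2 and 17.3 after depletion. The other 4 that fell were Pfkfb4 (-1.23, adjusted p = 0.0437), Aldoa (-1.01, 0.0375), Pfkl (-0.93, 0.0340) and Aldoc (-0.87, 0.00668). Aldoc, already the lower member in N-Ras+AKT controls, went from 12.3, 9.17 and 11.8 CPM to 5.74, 5.24 and 7.17 with no overlap. Among those that did not pass, Eno2 (-1.71 ± 0.65, adjusted p = 0.0778), Ankrd37 (-1.63 ± 0.59, 0.0655), Pkm (-1.14 ± 0.41, 0.0691) and P4ha1 (-0.86 ± 0.31, 0.0704) had the largest differences. Hk2 was at 29.5, 21.7 and 13.9 CPM and then at 24.8, 22.1 and 18.4 (0.00 ± 0.23), and Eno1 at 822, 766 and 844 and then at 819, 928 and 749 (0.04 ± 0.13). The 9 HIF genes outside glycolysis had a median of -0.86 (3 fell, none rose) and the 17 enzymes and lactate dehydrogenases a median of -0.26 (4 fell, none rose); without control 3 these medians were -0.38 and -0.18.

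These calls rested on few libraries. Without N-Ras+AKT control 3, 4 of the 10 still passed: Car9 (-2.17, adjusted p = 0.0279), Slc2a1 (-1.30, 0.0135), Egln3 (-1.11, 0.0390) and Aldoc (-0.79, 0.0267). Ndrg1 was then at -0.60 (adjusted p = 0.0994), Slc16a3 at -1.38 (0.0681) and Pfkp at -1.46 (0.156). Without N-Ras+AKT depletion 17, the lowest of its group for 19 of 33 members (36.3% of all genes), 3 passed: Car9 (-2.82, adjusted p = 0.0232), Slc2a1 (-1.75, 0.0320) and Aldoc (-1.02, 0.0126). Without depletion 6, 4 passed, without control 15, 6, without depletion 11, 9, and without control 10 all 10, by the same edgeR test. Car9, Slc2a1 and Aldoc fell under each of the alternatives tried.

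**Figure D3:**
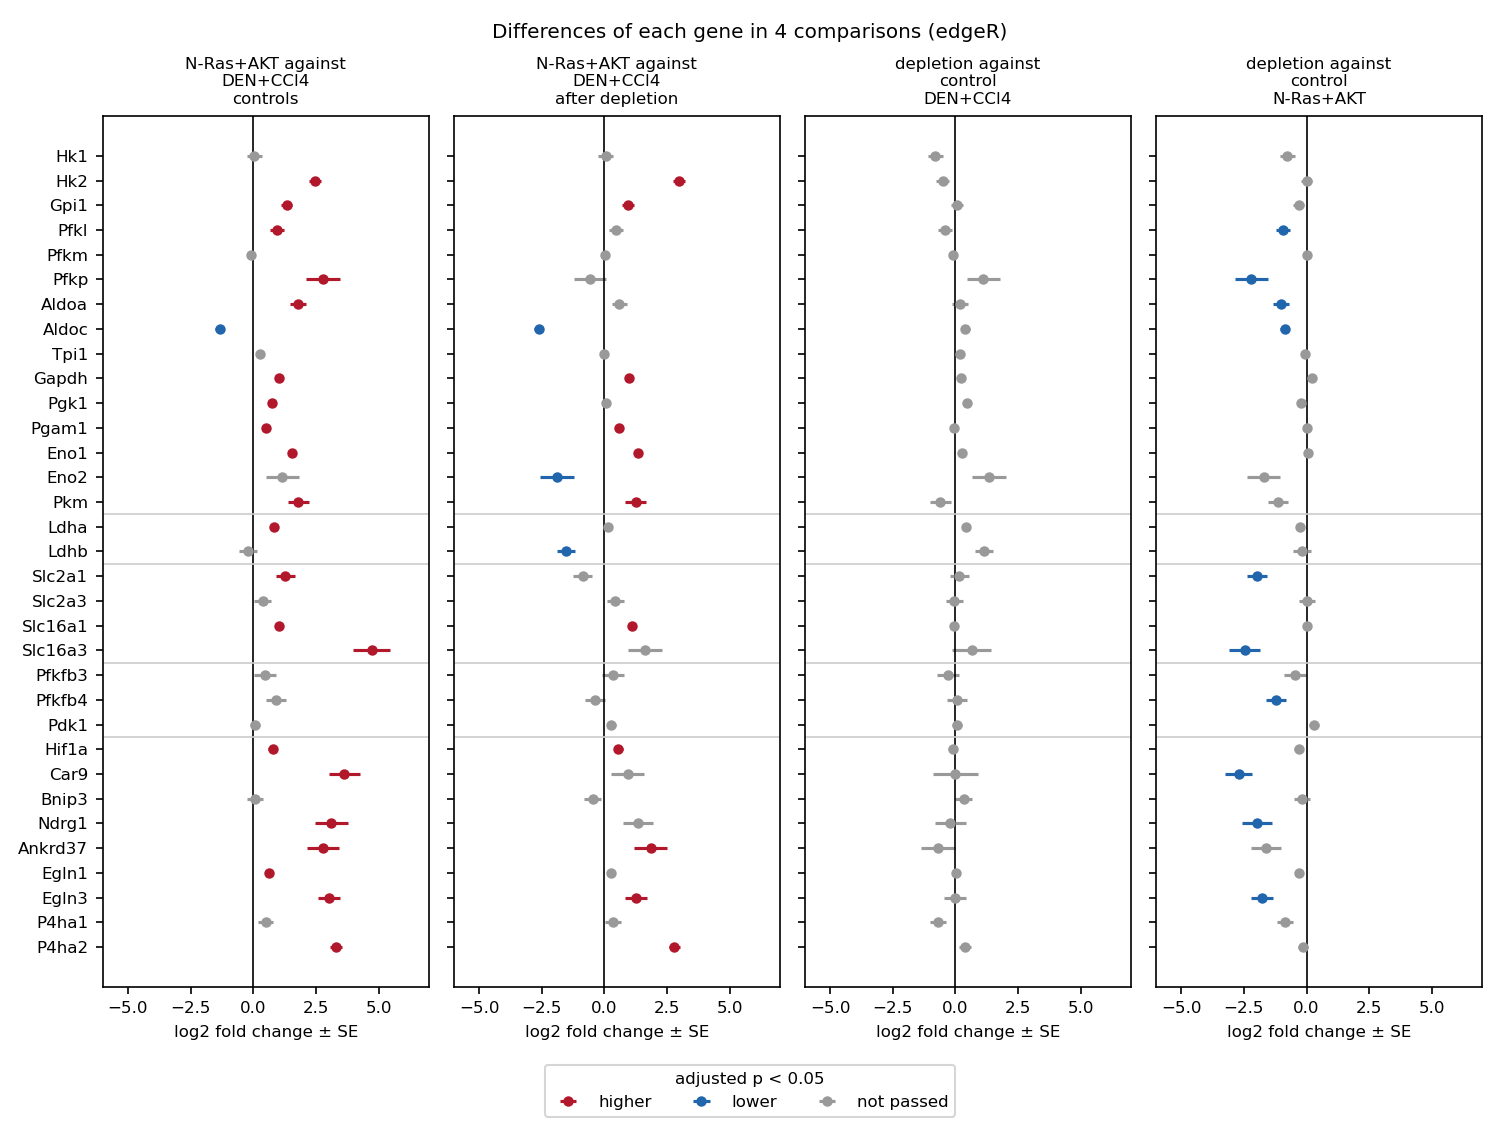
Each panel is a comparison and each point a member's log2 fold change with its standard error (edgeR, 12 libraries); red passed as higher, blue as lower and grey did not pass. Red points fill the panel of the controls, the DEN+CCl4 depletion panel is grey throughout, and the N-Ras+AKT depletion panel holds 10 blue points and no red one.

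The depletion effects of the 2 models were then compared directly. For 3 members the effect in N-Ras+AKT was below that in DEN+CCl4 and for none above it (3.60% and 7.98% of all genes tested); the median of the members' differences was -0.52 beside -0.03 over all genes. These were Pfkp (1.11 in DEN+CCl4 and -2.21 in N-Ras+AKT, difference -3.32 ± 0.92, adjusted p = 0.0441), Slc2a1 (0.16 and -1.98, difference -2.14 ± 0.54, 0.0312) and Aldoc (0.39 and -0.87, difference -1.26 ± 0.24, 0.0130). Aldoc passed under each alternative tried, while Pfkp and Slc2a1 did not pass without any of several single libraries. For Slc16a3 (-3.11 ± 0.98, adjusted p = 0.0632), Eno2 (-3.04 ± 0.93, 0.0553) and Car9 (-2.71 ± 0.91, 0.0748) the difference did not pass by edgeR, so a difference between the models is not shown for them by that test; DESeq2 called it for Slc16a3 and Car9.

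Isozymes were then set beside each other as shares of their family's counts per kb of exon, a description with no test. Per length, the liver forms Pklr and Slc2a2 were the main ones of their families in all 12 libraries, except that with the length of the principal transcript Pkm exceeded Pklr in N-Ras+AKT control 3 (63.4%). Pkm made up 14.4%, 15.2% and 14.7% of the pyruvate kinase signal in DEN+CCl4 controls, the rest being Pklr, and 10.1% to 11.5% after depletion. In N-Ras+AKT controls 3, 10 and 15 it made up 48.4%, 12.3% and 22.4%, and after depletion 6.15%, 7.29% and 4.14%. Pkm was thus higher in level but smaller in share in N-Ras+AKT than in DEN+CCl4 tumours after depletion, with Pklr also higher there (2.18). Pklr itself rose with depletion in N-Ras+AKT from 131, 271 and 167 CPM to 642, 432 and 441 (1.41 ± 0.27, adjusted p = 0.00573).

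Slc2a1 followed the same order beside the liver transporter Slc2a2, with 8.68% to 11.5% in DEN+CCl4 controls, 46.3%, 13.7% and 20.2% in N-Ras+AKT controls, and 5.13%, 5.59% and 2.62% in the N-Ras+AKT depletion libraries. Slc2a2 rose with depletion in N-Ras+AKT, from 138, 225 and 193 CPM to 366, 348 and 419 (1.03 ± 0.18, adjusted p = 0.00451).

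Pfkp made up 6.60% to 10.3% of the phosphofructokinases in DEN+CCl4 controls and 14.2% to 22.8% after depletion. In N-Ras+AKT controls 3, 10 and 15 Pfkp made up 35.7%, 16.7% and 26.3%, and after depletion 11.6%, 17.2% and 3.61%.

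Enolase and lactate dehydrogenase had no such balance. Eno1 was 96.7% to 99.6% of the enolases and Ldha 97.0% to 99.7% of the pair with Ldhb in all 12 libraries. Slc16a3 was at most 0.526% of the 3 monocarboxylate transporters in DEN+CCl4 and 9.14%, 1.18% and 2.43% in N-Ras+AKT controls. Of the 3 oxygen sensors, Egln3 made up 7.59% to 10.7% in DEN+CCl4 and 58.8%, 29.4% and 46.4% in N-Ras+AKT controls, then 22.4%, 27.7% and 15.9% after depletion. Control 3 had the largest share of the 12 libraries for Pkm, Slc2a1, Pfkp, Slc16a3 and Egln3. With the length of the principal transcript in place of all exons the shares of Pkm and Pfkp were higher in all 12 libraries. Control 3 stayed on top for both (63.4% for Pkm and 51.9% for Pfkp). By that length Pfkp made up 13.3% to 20.0% in DEN+CCl4 controls and 26.2% to 40.2% after depletion. It then exceeded Pfkl in DEN+CCl4 depletion 6 (40.2% against 31.0%) and in N-Ras+AKT control 3 (51.9% against 41.4%), among others.

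**Figure D4:**
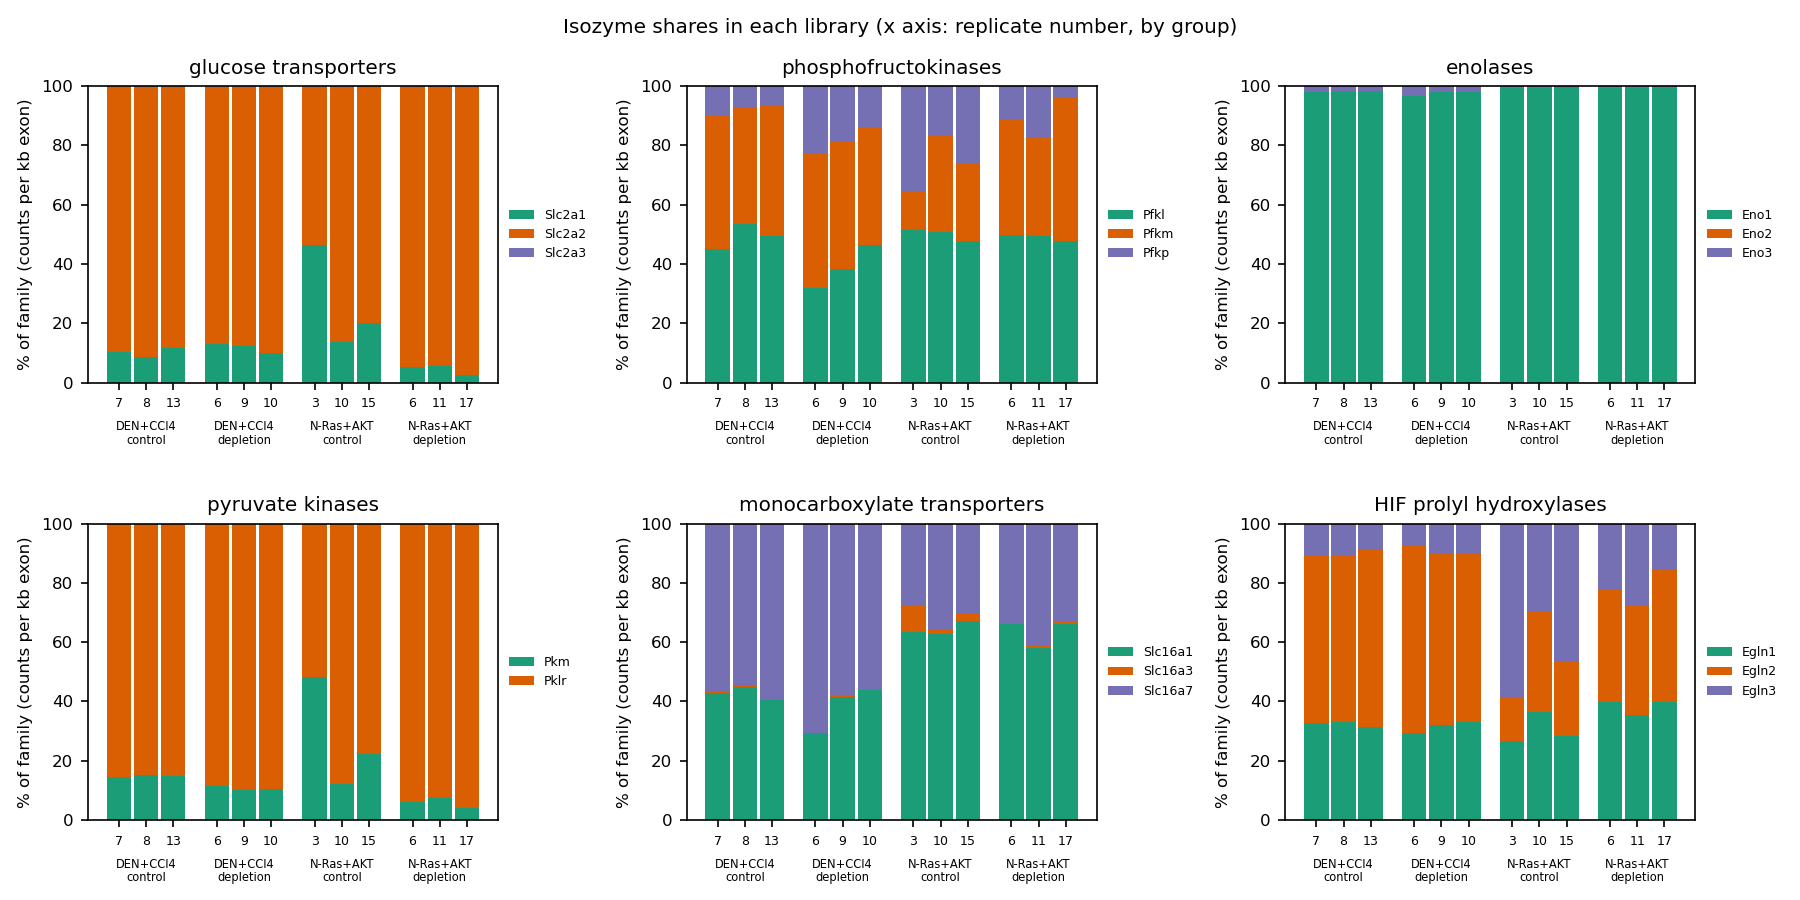
Stacked bars give each isozyme's share (%) of its family's counts per kb of exon in each of the 12 libraries, by group, for 6 families. The liver forms Slc2a2 and Pklr fill most of their bars, Eno1 fills nearly all of its bars, and N-Ras+AKT control 3 has the largest Slc2a1, Pkm, Pfkp, Slc16a3 and Egln3 shares.

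Genes of the same pathways outside the 33 were read from lists for comparison. Of 19 tested isozymes and regulators of the same steps, 4 were higher and 5 lower in N-Ras+AKT controls (median 0.03), near the shares of all genes given above (20.8% and 19.8%). None changed with depletion in DEN+CCl4 by edgeR (9 of 19 under an unadjusted p of 0.05, beside 3186 of all 17013 genes tested). With depletion in N-Ras+AKT 8 rose and 3 fell (median 0.45), where 12.8% of all genes tested rose and 10.8% fell. Among these were the hexokinase-like Hkdc1, which was 41.0-fold higher in N-Ras+AKT controls (5.36 ± 0.76, adjusted p = 0.000477) and fell with depletion (-2.22 ± 0.63, 0.0292), and Pdk3, a pyruvate dehydrogenase kinase, which fell (-1.72 ± 0.35, 0.00725). Of the isozymes not described above, the enolase Eno3 passed in no comparison. The liver form Pfkfb1 was lower in N-Ras+AKT, without depletion (-0.81 ± 0.14, adjusted p = 0.000831) and with it (-0.87 ± 0.14, 0.000644). Of the 7 other HIF pathway components, 5 were lower in N-Ras+AKT controls and 1, Hif3a, was higher, beside 19.8% and 20.8% of all genes tested. Epas1, the HIF-2 alpha subunit, was at 336, 410.4 and 413 CPM in DEN+CCl4 controls and at 133, 149 and 122 in N-Ras+AKT controls (-1.52 ± 0.15, adjusted p = 3.38e-05), the opposite direction to Hif1a. Among the depletion libraries Epas1 was again lower in N-Ras+AKT than in DEN+CCl4 (-1.90 ± 0.15, adjusted p = 1.04e-05). With depletion in N-Ras+AKT 2 of the 7 fell, where 10.8% of all genes tested fell. These were Hif3a (-3.56 ± 0.92, adjusted p = 0.0190) and Vhl (-0.47 ± 0.14, 0.0303), the ubiquitin ligase subunit that marks HIF alpha for destruction.

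Of 22 tested HIF targets beyond the members, 10 were higher and 2 lower in N-Ras+AKT controls (median 0.76), beside 20.8% and 19.8% of all genes tested. In the contrast after depletion 3 were higher and 1 lower (median 0.19), beside 17.9% and 15.8%. With depletion in N-Ras+AKT 8 fell and none rose (median -0.76), beside 10.8% and 12.8%. In DEN+CCl4 none changed by edgeR, with 5 of 22 under an unadjusted p of 0.05, beside 3186 of all 17013 genes tested. None passed the edgeR test of the difference of the depletion effects (smallest adjusted p = 0.0630), so a difference between the models is not shown for these targets. Plod2, a collagen lysyl hydroxylase, fell in N-Ras+AKT from 16.3, 11.4 and 13.7 CPM to 4.61, 2.22 and 0.925 (-2.42 ± 0.50, adjusted p = 0.00849), with even controls. Tmem45a (-3.02, adjusted p = 0.0106), Stc2 (-2.65, 0.0293) and the vasodilator peptide gene Adm (-2.58, 0.0295) also fell, and in Tmem45a control 3 was the lowest of the controls (5.35 CPM, against 13.8 and 19.6). Control 3 was the highest of its group for 16 of the 23 listed targets, beside 35.4% of all genes tested.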

How the data were processed

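Bulk poly-A RNA was sequenced from 12 tumour libraries, 3 in each of 4 groups; the 6 single-cell samples of the series were not analysed here. The values used are whole-number counts per Ensembl gene deposited by the authors. The submitters' processing notes name Cell Ranger 3.0.2, STAR 2.7.3, RSEM 1.3.1 and the build mm10, with no role or order, so the counts may be rounded RSEM estimates. The strand setting and annotation behind the counts were not given in the sources used here. Identifiers were matched to GENCODE M21 symbols, leaving 181 of 55335 unmatched (0.00642% of counts).

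Genes were filtered with filterByExpr (17013 kept), scaled by TMM and tested with edgeR 4.0.16 in R 4.3.3 (quasi-likelihood, robust, 4 group means, 8 residual degrees of freedom), with Benjamini-Hochberg adjustment over all genes tested and a threshold of 0.05. Errors are standard errors. The procedure was tested on simulated data. Alternatives were relative log expression (RLE) factors, library totals, DESeq2 1.42.0, limma voom (3.58.1), no filter, each library left out, DEN+CCl4 depletion 6 and N-Ras+AKT depletion 17 left out together, and the compared groups alone. Isozyme shares divide counts by the union of exons. The length of the principal transcript was an alternative chosen after seeing the data.

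The members and lists were chosen with earlier results of these data known. The rule was to name every member that passes, with full statistics for up to 6 by size, and up to 4 others by size. It also took a set of liver isozymes, Eno3, and up to 4 passing genes of each further list. Some genes that the rule would name, and the isozyme shares that need them, are not reported here.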

Additional observations from a re-analysis of the deposited data

Results flagged for a closer look

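For 10 of 81 tested genes of the members' and other pathway lists (12.3%, beside 11.6% of all genes tested), the effect of depletion differed between the models by a test of the difference itself (edgeR, adjusted over all genes tested; log2, N-Ras+AKT minus DEN+CCl4). Among the glycolysis and hypoxia genes these were Pfkp (-3.32), Slc2a1 (-2.14) and Aldoc (-1.26), described above.

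The liver forms Pklr (1.47 ± 0.38, adjusted p = 0.0292) and Slc2a2 (1.11 ± 0.25, 0.0201) had log2 changes of -0.06 and -0.08 with depletion in DEN+CCl4, and rose by 1.41 and 1.03 in N-Ras+AKT. Ldhd, which oxidises D-lactate, also differed (1.00 ± 0.22, adjusted p = 0.0172), with all 3 N-Ras+AKT depletion libraries (85.3, 76.3 and 112 CPM) above their controls (43.4, 52.1 and 38.5). Hk3, a hexokinase of myeloid cells, differed by 1.67 ± 0.42 (adjusted p = 0.0265). By the same test of the difference 6 of 10 macrophage markers were higher. With depletion in N-Ras+AKT alone 9 of 10 rose. The part of macrophages in the Hk3 values was not tested.

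Lower differences were found for Hif3a, an inhibitory HIF alpha subunit (-6.36 ± 1.34, adjusted p = 0.0170), for Pdk3 (-2.50 ± 0.49, 0.0130) and for Pfkfb2 (-0.85 ± 0.23, 0.0325). Hif3a rested on low levels: 0, 0.193 and 0.231 CPM in DEN+CCl4 controls, 2.02, 0.805 and 0.339 after depletion, 4.39, 1.07 and 1.03 in N-Ras+AKT controls and 0.0717, 0.330 and 0.135 after depletion. Pdk3 was at 2.85, 1.90 and 4.32 CPM in N-Ras+AKT controls and at 1.29, 0.947 and 0.519 after depletion, without overlap.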

How the results depend on the processing

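No paired analysis was possible because the groups compared share fewer than 2 replicate numbers. No member that passed changed direction under an alternative. The count of members higher in N-Ras+AKT after depletion (11) was 17 with library totals, 7 without DEN+CCl4 depletion 6 and N-Ras+AKT depletion 17 together, and 7 to 10 with any library left out; the count of lower members (3) was 1 without those 2 libraries. With depletion in DEN+CCl4, DESeq2 called 2 higher. With depletion in N-Ras+AKT the 10 members that fell became 4 with no filter, 3 without the 2 libraries, 4 with the compared groups alone and 3 to 14 with any library left out. The difference of the depletion effects (3 lower) gave 11 with library totals, 9 with DESeq2, 1 with no filter, 1 without the 2 libraries and 1 to 9 with any library left out. The cause was not tested. Library totals moved the median of all genes to 0.68, 0.35, 0.12, -0.23 and -0.36 in the 5 comparisons, with the members at 1.61, 0.76, 0.20, -0.53 and -0.84. Over all genes, library totals gave 9401 higher and 1059 lower in the controls (3538 and 3363 with TMM), 5578 and 1187 after depletion (3051 and 2689), 1326 and 3227 with depletion in N-Ras+AKT (2186 and 1841) and 827 and 2143 for the difference (1357 and 613). In DEN+CCl4, DESeq2 called 366 genes higher and 677 lower, where edgeR called 19 and 44. Of 84 isozyme shares, 43 moved by more than the spread of their group with the principal transcript length and 59 as plain count shares. With 3 libraries a group and few counts, changes of Eno2 and Car9 were poorly resolved in DEN+CCl4.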
